A study of Mus musculus with 6 samples.

Results

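The imprinted growth genes examined here are H19, Igf2, Meg3, Rian, Mirg, Dlk1, Peg3, Peg10, Grb10 and Mest, each transcribed from only 1 parental copy in most of the tissues that express it. They were taken by name, and a peak of Ago2-bound RNA was counted for a gene when it overlapped any of its annotated exons on mm10 by at least 1 bp. Of these 10 genes, 6 had an exonic peak in at least 1 of 5 libraries, among 55450 annotated genes in all. Those 6 genes held 53 of the 107307 peaks, which merged into 18 of 41363 intervals.

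The RNA came from primary mouse satellite cells (MSC), the stem cells of skeletal muscle, kept in differentiation medium (DM) for 30 h so that they became myocytes. They were transfected with 10 nM of a miR-222 duplex or of siGFP, a duplex against a protein that the cells do not make, and lysed 16 h later. The methods of the study give a higher duplex concentration than the labels. Neither strain nor age of the mice is given in the labels, and nothing there says whether libraries came from separate animals or cultures, so the spread between libraries may be technical. RNA held by Ago2, the protein of the RNA-induced silencing complex (RISC) that carries the miRNA, was precipitated and sequenced in 6 libraries. In experiment 1 these were miR-222-IP replicate 1 with control-IP replicates 1 and 2, and in experiment 2 they were miR-222-IP replicate 2 with control-IP replicates 3 and 4. A difference within 1 experiment therefore rests on a single miR-222-IP.

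Each list gives positions of peaks and the −log10 p that macs2 assigned to each, kept by the authors where it was above 20. This value increases with the reads piled up at a position and with the depth of the library. Read totals played no part here, and the depth of each peak is unknown. An abundant transcript and one held tightly by Ago2 cannot be told apart from these lists, and a gene without a peak may still have been bound below the threshold. In bulk RNA, fewer cells of a type and less RNA per cell cannot be told apart either. Control-IP replicate 3 stands apart: its 3619 peaks had a median width of 32103 bp, against 362 to 411 bp in the other libraries, and its list had no peak on the chromosomes of 5 of the 10 genes. It is given separately, and the other 5 libraries held 10579 to 37762 peaks, with the highest number in miR-222-IP replicate 2.

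Markers of differentiated myocytes were present. All 12 of them (Myog, Myod1, Mef2c, Myh3, Myh8, Acta1, Actc1, Tnnt3, Ttn, Des, Ckm and Chrna1) had an exonic peak in at least 1 library, 8 of them in all 5. Myog had one in miR-222-IP replicate 2 alone, with 75.7. Myh8 had none in control-IP replicates 1 and 2, Ckm none in replicates 1 and 4 and Ttn none in replicate 4. Their summed −log10 p was 457 to 676 in 4 libraries and 1701 in miR-222-IP replicate 2, where 11 of the 12 had their highest value. Pax7 and Myf5, which mark proliferating satellite cells and myoblasts, had no peak in any of the 5 libraries, and Cdh15, the other gene of that list, had 1 in miR-222-IP replicate 2 alone. Of 6 fibroblast markers, 4 had a peak in any library and none in all 5, and Col1a1 and Dcn had none. None of 3 adipocyte markers had a peak, and 2 of 3 endothelial markers did, Pecam1 in all 5 libraries. All 3 leukocyte markers had one, with a summed −log10 p of 358 to 508 over the libraries. Adgre1, which encodes the macrophage protein F4/80, lay between 196 and 236, at percentile 97.6 or higher among the genes with a peak in each library. The part of these other cell types in the values of the imprinted genes was not tested.

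Imprinted genes sit in clusters whose methylated control regions differ between the maternal and the paternal chromosome, so that neighbouring genes are silenced on opposite copies. Igf2, a growth factor of the insulin family made by differentiating muscle cells, is paternally expressed and is paired with the maternally expressed non-coding RNA H19. Paternal Dlk1 is paired with maternal Meg3, Rian and Mirg, which carry many snoRNAs and miRNAs. MiRNAs reach their targets mainly through bases 2 to 8, the seed. MiR-222 shares its seed with miR-221, and let-7 was examined because H19 is known to carry let-7 sites. MiR-675 is cut from H19 itself. The mature sequences from the RefSeq table on GRCm38 are given 5′ to 3′ with the seed in capitals.
mmu-miR-222-3p: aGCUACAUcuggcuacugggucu
mmu-miR-221-3p: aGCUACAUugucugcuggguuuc
mmu-let-7a-5p: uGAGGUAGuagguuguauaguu
mmu-miR-675-5p: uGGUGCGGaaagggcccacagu
mmu-miR-675-3p: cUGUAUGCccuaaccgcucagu

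H19, Igf2 and Peg10 carried exonic peaks in all 5 libraries, Rian in 4, Peg3 in 3 and Grb10 in 1. Meg3, Mirg, Dlk1 and Mest had no peak in any of them. An exonic peak was found for 23.9% of all annotated genes and for 46.9% of protein-coding genes, beside 6 of the 10 imprinted genes and 4 of the 6 that encode proteins. H19 and Igf2 had the 2 highest values in 4 of the 5 libraries, Peg10 being above Igf2 in miR-222-IP replicate 2, and they were the only ones of the 10 genes above 60 in every library.

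**Figure D1:**
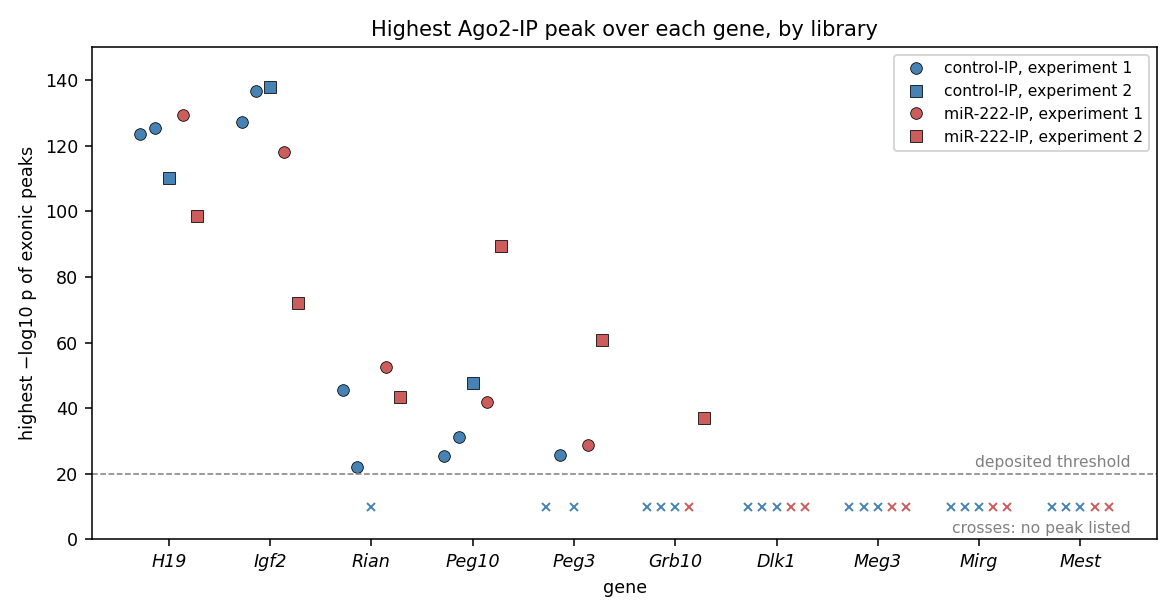
Highest −log10 p of the exonic peaks of each gene (vertical axis) in the 5 libraries with narrow peaks, coloured by condition and shaped by experiment, with crosses where no peak was listed. H19 and Igf2 sit highest except in miR-222-IP replicate 2, where Peg10 is above Igf2. Their lowest point is that library, which gave Peg10, Peg3 and Grb10 their highest points.

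H19 (ENSMUSG00000000031, chr7:142575529-142578143, minus strand) is a non-coding RNA that muscle precursors express strongly and from whose first exon miR-675 is processed. Its highest −log10 p was 124, 126 and 110 in control-IP replicates 1, 2 and 4. In the miR-222-IPs it was 129 (replicate 1) and 98.5 (replicate 2). The value in miR-222-IP replicate 1 was thus the highest and that in replicate 2 the lowest of the 5. In every library peaks covered most of the RNA, from 81.7% of its exonic bases in control-IP replicate 1 to 97.8% in miR-222-IP replicate 2, whereas the median gene with a peak had 18.6% to 31.0% covered.

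The peaks over H19 were divided differently in the conditions. Each of the 3 control-IPs listed 2 peaks, a 5′ peak of 611 to 682 bp with −log10 p of 110 to 126 and a 3′ peak of 1529 to 1580 bp with 71.7 to 90.4. Both miR-222-IPs listed 1 peak over the whole RNA, of 2457 and 2570 bp. The gap common to the 3 control-IPs spanned chr7:142577143-142577338, which is 196 bp of exon 1. Of the 84 bp of the Mir675 hairpin, 49 bp lay in the gap of control-IP replicate 1, 53 bp in that of replicate 2 and 5 bp in that of replicate 4. The gene's only annotated hairpin is printed below in capitals with 18 bases of H19 on either side (chr7:142577046-142577165, minus strand), because an edge of each control-IP gap lies within it.
H19 around the miR-675 hairpin: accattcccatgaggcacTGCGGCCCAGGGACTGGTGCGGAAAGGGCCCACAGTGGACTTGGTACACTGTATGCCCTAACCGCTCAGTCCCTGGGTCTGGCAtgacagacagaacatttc
Of 61 intervals in the series with at least 2 peaks in each of these control-IPs and a peak in both miR-222-IPs, 19 were a single peak in both miR-222-IPs, which is 31.1%. H19 was among these 19, and a second such interval, over Igf2, was not. This comparison was chosen after the peaks had been seen. The H19 interval also overlapped Mir675 and 2 short RNAs annotated on the opposite strand, Gm27483 and Gm27786, and the lists do not give the strand of reads.

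**Figure D2:**
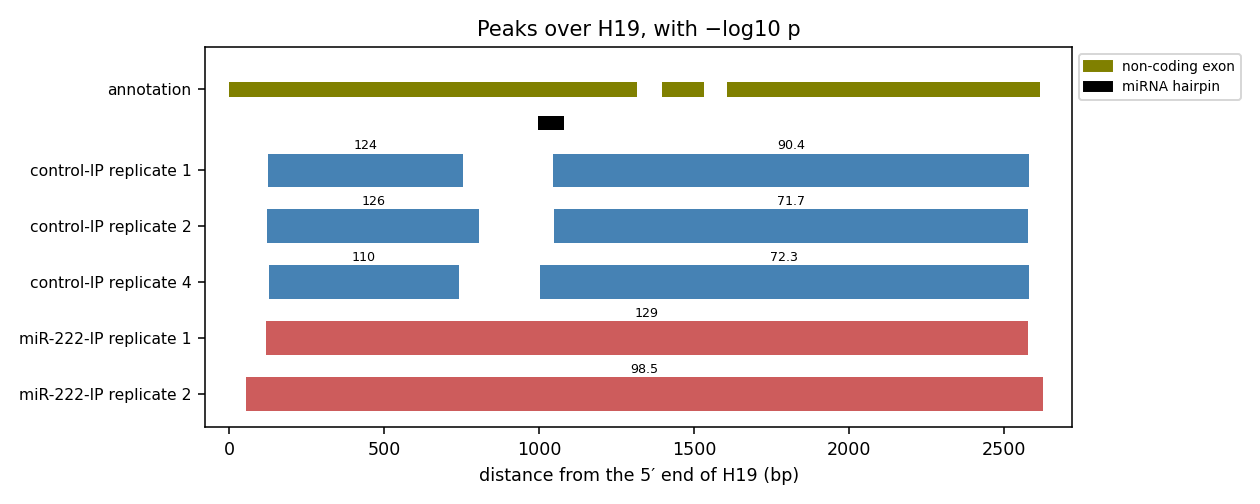
Peaks over H19 by library against the distance in bp from its 5′ end, with exons and the Mir675 hairpin on the top line and −log10 p above each peak. The 3 control-IPs have a gap between a 5′ and a 3′ peak, and both miR-222-IPs have 1 unbroken peak.

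Igf2 (ENSMUSG00000048583, chr7:142650766-142666816, minus strand) had its 2 strongest peaks over the 3′UTR in 4 of the 5 libraries. Its highest −log10 p was 127, 137 and 138 in control-IP replicates 1, 2 and 4. The 2 miR-222-IPs had 118 and 72.1. Both miR-222-IPs lay below all 3 control-IPs before any scaling. The control-IPs and miR-222-IP replicate 1 listed the same 3 peaks, which covered 29.4% to 30.4% of the exonic bases. The peak nearest to the stop codon in the 3′UTR, 590 to 615 bp wide, had 127, 137, 138 and 118 in these 4 libraries. The peak at the 3′ end of the RNA varied less, with 113, 114, 108 and 111. The third peak spanned the stop codon and had 62.3, 55.9, 55.9 and 71.7, with the highest value in miR-222-IP replicate 1.

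MiR-222-IP replicate 2 had another arrangement over Igf2. It listed 4 peaks that covered 59.1% of the exonic bases. A peak of 1551 bp with −log10 p of 65.5 replaced the peak across the stop codon and the next one in the 3′UTR, and the peak at the 3′ end had 71.8. A peak of 294 bp in the middle of the 3′UTR, with 67.3, and a peak of 707 bp over 5′UTR sequence (chr7:142658625-142659331), with 72.1, were listed in this library alone. The summed −log10 p of Igf2 was therefore nearly level, at 302, 307 and 302 in the control-IPs and 301 and 277 in the miR-222-IPs. The 3 intervals in the 3′UTR also overlapped Gm49394, a longer gene annotated on the same strand that shares these exons.

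**Figure D3:**
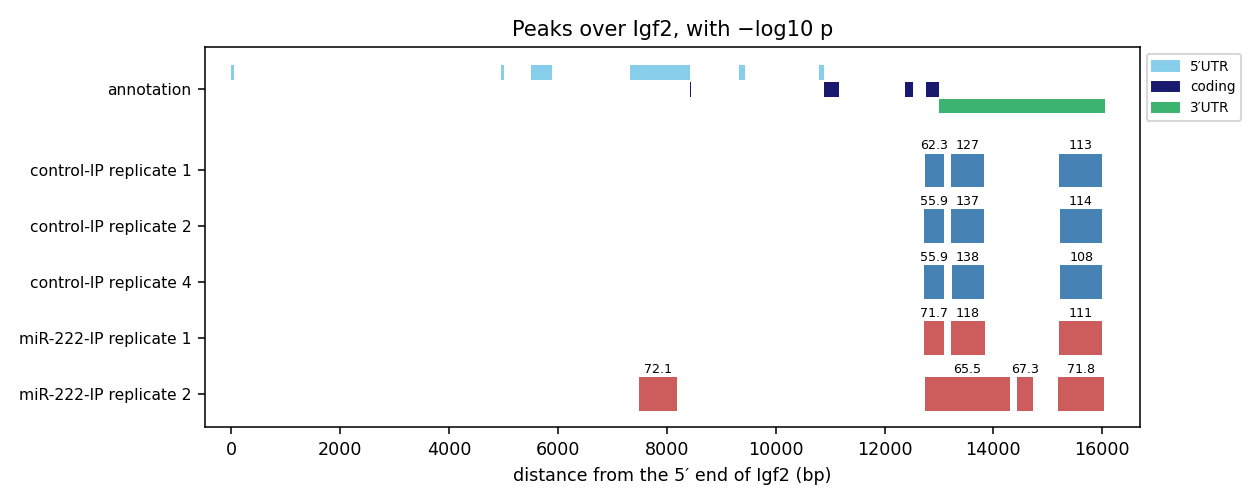
Peaks over Igf2 by library against the distance in bp from its 5′ end, with 5′UTR, coding and 3′UTR parts of all transcripts on the top line and −log10 p above each peak. In 4 libraries 3 peaks lie at the 3′ end, and miR-222-IP replicate 2 adds a peak over 5′UTR sequence and wider, lower ones over the 3′UTR.

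Rian (ENSMUSG00000097451, chr12:109603940-109661716, plus strand) is a long non-coding host of snoRNAs and miRNAs. Its main peak lay in its 3′ part (chr12:109660757-109661379) with −log10 p of 45.4 and 22.0 in control-IP replicates 1 and 2. The 2 miR-222-IPs had 52.4 and 43.4. Control-IP replicate 4 listed no peak there. The 2 control-IPs of experiment 1 thus differed by more than the distance from control-IP replicate 1 to either miR-222-IP. Control-IP replicate 1 and miR-222-IP replicate 1 listed a weaker peak (chr12:109650641-109651130), at 22.3 and 20.1. Together the peaks covered 2.97% to 5.93% of the exonic bases of Rian in these 4 libraries, and none of its 3 annotated hairpins. The middle of the stretch of 505 bp that all 4 libraries shared is printed in lower case (chr12:109660977-109661176, plus strand, GRCm38), as the only stretch of the Dlk1-Meg3 cluster with a peak in more than 2 libraries. Its 200 bases are 36.5% G or C.
Rian, middle of the shared peak: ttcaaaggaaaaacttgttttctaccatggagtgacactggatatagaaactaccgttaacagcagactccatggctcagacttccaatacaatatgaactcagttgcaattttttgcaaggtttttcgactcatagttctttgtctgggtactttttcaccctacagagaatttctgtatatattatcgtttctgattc

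The rest of that cluster was empty. No peak of the 5 libraries, and none of control-IP replicate 3, fell between the start of Dlk1, which encodes a membrane inhibitor of Notch and of adipocyte formation, and the start of Rian, a distance of 151117 bp that includes the tumour suppressor RNA Meg3. None fell between the end of Rian and the end of Mirg, a distance of 87744 bp. Of 21 hairpins annotated within 6 of the imprinted genes, 14 lie in Mirg, and 11 overlap an exon of their host. Only that of H19 was touched by a peak. Thus 1 of the 18 intervals overlapped a hairpin, beside 90 of 38946 exonic intervals of the series (0.231%).

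Peg10 (ENSMUSG00000092035, chr6:4747306-4760517, plus strand) derives from a retrotransposon and encodes proteins read in 2 frames. Its highest −log10 p was 25.4, 31.3 and 47.8 in control-IP replicates 1, 2 and 4. The 2 miR-222-IPs had 41.8 and 89.5. The groups overlapped, since control-IP replicate 4 was above miR-222-IP replicate 1. Within each experiment the miR-222-IP had the higher value when libraries were scaled as described below. The control-IPs listed 1, 2 and 2 peaks and the miR-222-IPs 4 each. Exonic coverage was 12.2%, 10.9% and 26.3% in the control-IPs against 32.0% and 59.8% in the miR-222-IPs. The median gene with a peak was split the same way, with 21.6%, 18.6% and 23.3% covered against 25.1% and 31.0%. Such a gene had a median of 2 peaks in miR-222-IP replicate 2 and of 1 in each other library.

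The highest value of Peg10 was not at the same place in all libraries. In the 3′UTR interval (chr6:4758808-4760144) control-IP replicates 1 and 4 had 25.4 and 47.8 and the miR-222-IPs 41.8 and 39.3, so here a control-IP was highest. In the interval at the first exon (chr6:4747318-4747877) control-IP replicate 2 had 31.3 and the miR-222-IPs 20.2 and 89.5. Only 261 of the 560 bp of this interval were exonic. In the interval over the first reading frame and the start of the second (chr6:4754493-4756178) it was 22.8 in control-IP replicate 4 and 30.5 and 36.5 in the miR-222-IPs. Ribosomes pass from the first to the second frame of Peg10 at a slippery heptamer, in capitals below within 30 bases (chr6:4755315-4755344, plus strand). The heptamer GGGAAAC occurred once on the gene's strand in its exons, and only the peak of miR-222-IP replicate 2 covered it, while those with 22.8 and 30.5 ended before it.
Peg10 frameshift heptamer: gaattcgccgccGGGAAACtccccggcccc

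Peg3 (ENSMUSG00000002265, chr7:6703892-6730431, minus strand) encodes a zinc finger protein active in muscle stem cells. Control-IP replicates 1 and 4 had no peak over it. Control-IP replicate 2 had 1 peak in the 3′UTR with −log10 p of 25.6, and miR-222-IP replicate 1 had 28.9 there and 21.5 across the stop codon. MiR-222-IP replicate 2 listed 6 peaks along the RNA, with 60.8 and 44.0 at these 2 places and 22.2 to 36.0 at the other 4, in coding and 5′UTR sequence. The highest value was thus in miR-222-IP replicate 2, and both miR-222-IPs were above the only control-IP with a peak.

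Grb10 (ENSMUSG00000020176, chr11:11930508-12038683, minus strand) encodes an adaptor that dampens signalling from the insulin and IGF receptors. It had 1 peak, in the 3′UTR (chr11:11931556-11932046), listed by miR-222-IP replicate 2 alone, with −log10 p of 36.9. That value was at percentile 22.8 among the genes with a peak in that library. Mest, which encodes a hydrolase-like protein of mesoderm, had none, and the 3 peaks within 5000 bp of it lay 74 to 1995 bp past its 3′ end, over exons of Copg2, with 20.5 to 23.3.

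**Figure D4:**
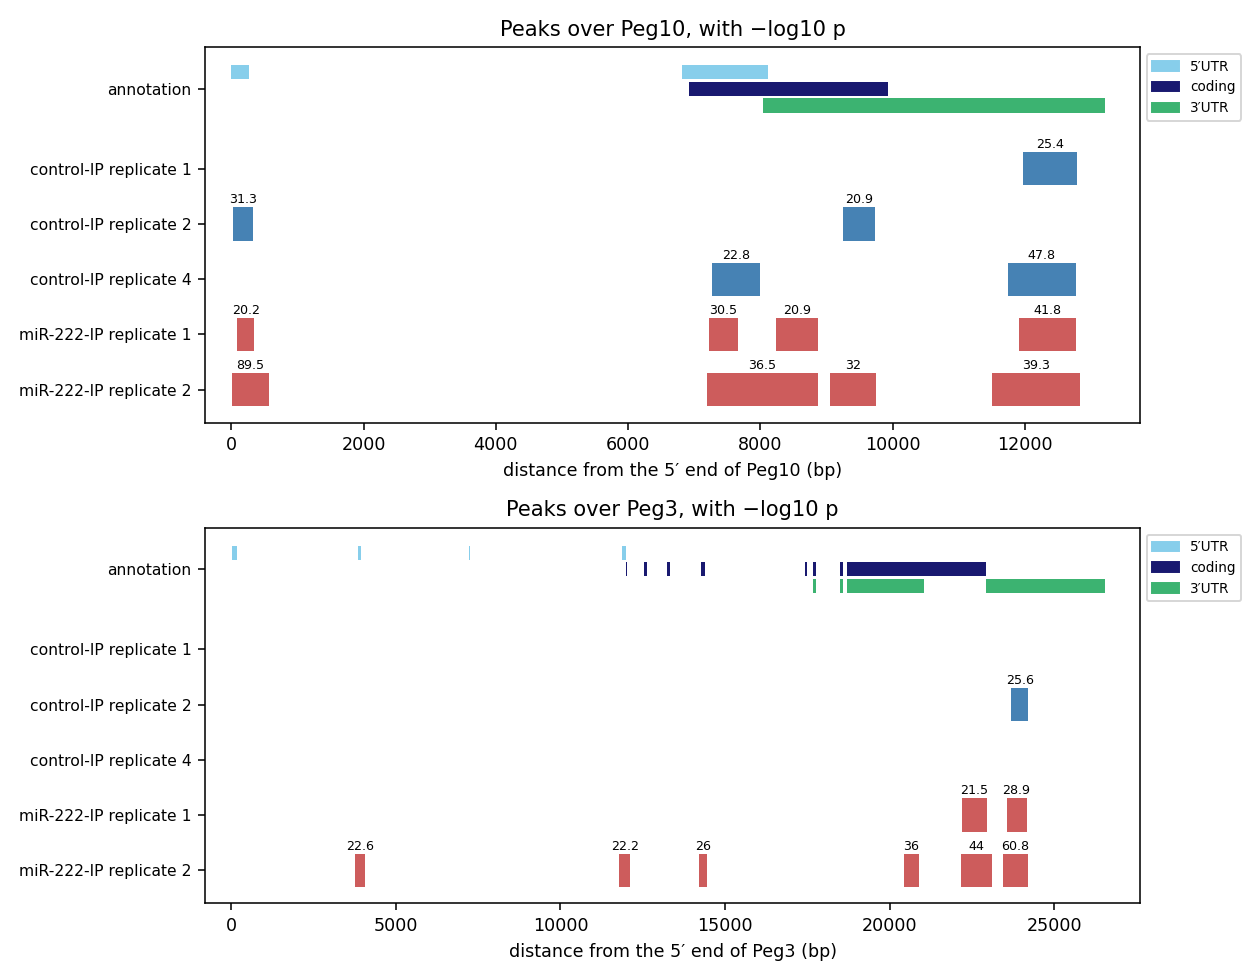
Peaks over Peg10 (top) and Peg3 (bottom) by library against the distance in bp from the 5′ end, with parts of all transcripts on the top line of each panel and −log10 p above each peak. Most peaks of Peg3 and the highest peak of Peg10 (89.5, at the 5′ end) are in miR-222-IP replicate 2.

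By library, the 18 intervals of these genes had a peak in 6, 7 and 5 cases in control-IP replicates 1, 2 and 4. The 2 miR-222-IPs had one in 10 and 17 cases. The control-IP shares were 33.3%, 38.9% and 27.8%, beside 25.4%, 47.0% and 43.8% of all exonic intervals of the series. In miR-222-IP replicate 1 the share was 55.6%, beside 51.8% of all. The 94.4% in miR-222-IP replicate 2 stands beside 92.3% of all exonic intervals of the series, and 38.9% were listed in that library alone, beside 30.9% of all. When each library was reduced to its 10579 strongest peaks, a comparison added after the lists had been seen, H19 and Igf2 kept a peak in all 5 libraries and Peg10 in 4, Rian in 2, and Peg3 and Grb10 had none. The library in which Peg10 then had no peak was control-IP replicate 2.

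Ratios of miR-222-IP to control-IP were formed within each experiment from the highest −log10 p of a gene, after scaling by the median of ratios, and averaged. They cover the 5283 genes with a peak in all 5 libraries and are not fold changes in reads. The exact permutation test within experiments has 6 arrangements, so its smallest p is 0.167 and no difference could pass 0.05. Of those genes, 16.6% were above every control-IP in both experiments and 16.8% below every one. Of the 3 imprinted genes with a ratio, Peg10 was above, Igf2 below and H19 neither. Their median log2 ratio was −0.57, beside −0.01 over all 5283 genes. Without scaling the median of all genes was 0.48 and that of the 3 genes −0.052, so that both moved up by a similar amount.

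Igf2 had log2 ratios of −0.49 in experiment 1 and −1.64 in experiment 2, with a mean of −1.06 ± 0.81 (SD, n = 2 experiments, exact permutation p = 0.333, two-sided). Only 7 of the 5283 genes had a lower mean. The scaled values were 184, 136 and 145 in control-IP replicates 1, 2 and 4, and 114 and 46.6 in the miR-222-IPs, which do not overlap. Ratios differed with the level of a gene. Among the 827 genes within 0.25 log2 units of the mean level of Igf2 the median ratio was −0.15 and 27.9% were below every control-IP. Of these, 99.6% had a higher ratio than Igf2. The interval that joined the peak across the stop codon and the next 3′UTR peak had a mean of −1.10 (exact permutation p = 0.167, the smallest possible). Its values in the control-IPs and miR-222-IP replicate 1 were those of the 3′UTR peak. Before scaling, the peak across the stop codon was higher in miR-222-IP replicate 1, at 71.7, than in the control-IPs, at 62.3, 55.9 and 55.9. The interval at the 3′ end had a mean of −0.79 (p = 0.333 by the same exact permutation test). Both intervals and that of H19 were below every control-IP in both experiments, as were 18.4% of 7935 intervals with a peak in all 5 libraries.

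H19 had log2 ratios of −0.28 and −0.86, with a mean of −0.57 ± 0.41 (SD, n = 2 experiments, exact permutation p = 0.5). Its scaled value in miR-222-IP replicate 1, 125.3, lay between those of control-IP replicates 1 and 2, 179 and 124.9. Among the 798 genes within 0.25 log2 units of the level of H19 the median ratio was −0.16. Of these, 28.6% were below every control-IP and 91.5% had a higher ratio than H19. The mean log2 ratio of H19 was −0.052 without scaling and −1.49 when its peaks were summed. That sum adds 2 peaks in each control-IP but takes 1 unbroken peak in each miR-222-IP, so it carries the way the peaks were divided. Peg10 had log2 ratios of 0.25 and 0.21, with a mean of 0.23 ± 0.03 (SD, n = 2 experiments, exact permutation p = 0.333). Among the 1153 genes within 0.25 log2 units of its level the median ratio was 0.15, 25.8% were above every control-IP and 59.8% had a lower ratio than Peg10. Scaled to the sum of all peaks, the ratio of Peg10 was −0.16. In the library where Igf2 and H19 were lowest, the myocyte markers other than Mef2c were highest (above), and their part in these ratios was not tested.

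**Figure D5:**
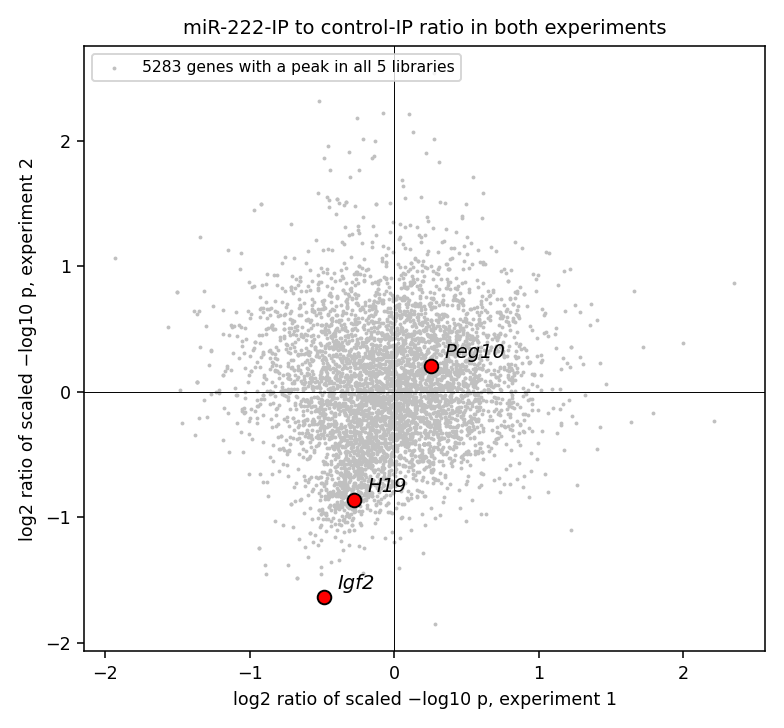
Log2 ratio of scaled −log10 p, miR-222-IP to control-IP, in experiment 1 (horizontal) and experiment 2 (vertical) for the 5283 genes with a peak in all 5 libraries, with the 3 imprinted genes in red. Igf2 lies at −0.49 and −1.64 at the lower edge of the cloud, H19 lies within its lower part, and Peg10 lies near the centre.

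Among the 15 intervals of the protein-coding genes, 10 overlapped 3′UTR sequence of some transcript (66.7%, beside 40.1% of 37918 pairs of an interval and a protein-coding gene in the series). Coding sequence was overlapped by 7 (46.7%, beside 86.3%) and 5′UTR by 5 (33.3%, beside 10.9%). An interval can overlap more than 1 part, and the same bases can count as 2 parts where transcripts differ. The 10 include Peg10 intervals of 1686 and 700 bp and a Peg3 interval of 440 bp. All 3′UTR bases of these are also coding sequence of another transcript, so the 3′UTR share depends on this double annotation. Pairs of the series were counted in the same way. Over all 18 intervals, non-coding ones included, the median width was 662 bp and the median content was 47.7% G or C, ranging from 37.6% in the weaker Rian peak to 66.2% in the 5′UTR peak of Igf2, beside medians of 376 bp and 46.9% over all exonic intervals.

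The 7-mer ATGTAGC, complementary to the miR-222 seed, was searched on the strand of each gene. None of the 18 intervals held it, beside 2.64% of 38821 exonic intervals, a share that increased from 1.37% of those under 400 bp to 9.14% of those of 1000 bp or more. The 6-mer TGTAGC without its first base was not found either, beside 11.3% of all. Exons of the imprinted genes held the 7-mer 3 times, once in Meg3 and at 2 places in Rian. These sites are printed with the 7-mer in capitals, since they are the only full seed matches of the duplex in the 10 genes.
Meg3, chr12:109560124-109560153: taggtagatgaATGTAGCtggaagacgggg
Rian, chr12:109647585-109647614: tttaatgacagATGTAGCatgtgacagatt
Rian, chr12:109650421-109650450: ctgaagagcagATGTAGCcataggcatata
No narrow peak covered any of them. Both sites in Rian lay under the wide peak of control-IP replicate 3, which spanned 15108 bp (chr12:109646243-109661350) with −log10 p of 46.4.

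The let-7 7-mer CTACCTC was held by 2 of the 18 intervals, beside 3.77% of all exonic intervals and 6.13% of those of 600 to 999 bp, the class of both. It lay in the Peg3 3′UTR and in the Igf2 5′UTR, each under a peak of miR-222-IP replicate 2 alone. H19 exons, whose known let-7 sites prompted the search, held neither this 7-mer nor the 6-mer TACCTC. Imperfect matches were not searched. The 6-mer was in 4 of the 18 intervals, beside 10.5% of all and 16.0% of those of 600 to 999 bp, the class of 3 of them. The one in the Igf2 3′UTR was covered in all 5 libraries. Igf2 held 1 further 7-mer each for miR-206, ACATTCC, and miR-133, GGACCAA, 2 miRNAs of muscle that were added after the peaks had been seen. Both lay in 3′UTR sequence that only the wide peak of miR-222-IP replicate 2 covered. The miR-206 7-mer was in 3.54% of all exonic intervals and in 10.4% of those of 1000 bp or more, the class of this interval. For the miR-133 7-mer these shares were 3.26% and 9.23%. The sites under peaks are shown with the match in capitals, on the minus strand.
Igf2 let-7, chr7:142659235-142659264: tcctcctctatCTACCTCaacaccccattc
Peg3 let-7, chr7:6706872-6706901: tgttctgtcccCTACCTCttagatagtcct
Igf2 miR-206, chr7:142652853-142652882: cgatttgaaccACATTCCccaaaacaaggc
Igf2 miR-133, chr7:142652630-142652659: ccccgccatgaGGACCAAtgactagccagt
A match is a description of the letters and does not show that the miRNA was bound.

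Genes around the same axis were taken from 2 further lists. Of 53 other imprinted genes, 30 had an exonic peak and 11 had one in all 5 libraries, of which 1 (9.09%) was above every control-IP in both experiments and 1 (9.09%) below. Over all genes 23.9% had a peak and 9.53% had one in all 5 libraries (46.9%, and 4160 of 21951, of protein-coding genes), and of all genes with one in all 5, 16.6% were above and 16.8% below. The median log2 ratio of the 11 was 0.02. The strongest was Cd81, a membrane tetraspanin, with −log10 p of 270 to 317 over the libraries. Gnas, which encodes the stimulatory G protein subunit, was below every control-IP after scaling, with a mean log2 ratio of −0.49. Gab1, an adaptor of receptor tyrosine kinases, was above, with 45.6, 95.5 and 87.4 in control-IP replicates 1, 2 and 4 and 120 and 173 in the miR-222-IPs and a mean of 0.41. Nnat, with 125, 130 and 85.1 in the control-IPs and 141 and 81.8 in the miR-222-IPs, Sgce and Ppp1r9a were the other strong ones and were on neither side in both experiments. Sgce, which shares its promoter region with Peg10 in the opposite direction, had 71.5, 76.4 and 137 in the control-IPs and 135 and 185 in the miR-222-IPs.

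Of 31 genes of IGF supply, reception and signalling, 26 had an exonic peak and 13 had one in all 5 libraries, with a median log2 ratio of −0.03. Above every control-IP in both experiments were 3 of the 13 (23.1%) and below were 2 (15.4%), near the 16.6% and 16.8% of all genes. The counts above and below therefore do not set the list apart. Igf1, the other IGF ligand, had 55.4, 61.5 and 81.8 in control-IP replicates 1, 2 and 4 and 85.4 and 134 in the miR-222-IPs, with a mean log2 ratio of 0.12. Pik3ca, the catalytic subunit of PI3 kinase, had a mean of 0.63, and Igf2bp3, an RNA-binding protein named for its binding to Igf2 mRNA, had 0.50. Below every control-IP were Gsk3b, a kinase that Akt inhibits, with a mean of −0.28, and Igfbp4, which sequesters IGFs, with −0.18. Akt1, a kinase, and Pik3r1, a regulatory subunit of PI3 kinase, were among the strong ones of the list, had means of −0.08 and −0.20 and were on neither side in both experiments. These ratios are smaller than that of Igf2 in size, and no test compared them.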

How the data were processed

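Ago2-bound RNA was sequenced in 6 libraries of MSC myocytes, 4 control-IPs and 2 miR-222-IPs, grouped by the sample labels. The authors aligned reads to mm10 with SOAPSplice, converted alignments with bedtools and ran macs2 with its defaults on every library. They deposited the peak positions with −log10 p above 20. Neither the macs2 version, nor a control track, nor the strand of reads is given in the sources used here. No read counts were used, so no interval of counting error is given, and the precision is limited by the number of libraries.

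Peaks of 5 libraries were assigned to exons of GENCODE M21 with bedtools 2.31.1 by an overlap of at least 1 bp and merged where they overlapped or touched, with numpy 2.4.6 and pandas 2.3.3 under Python 3.11.15. The stop codon was counted as coding. Sequences came from GRCm38 through pysam 0.24.0, and no peak ran past a chromosome end of that assembly. Coordinates are 1-based. Log2 ratios set each miR-222-IP against the mean of the control-IPs from the same experiment (experiment as a block), and labels were permuted within experiments, two-sided. Samples share replicate numbers only as names, so nothing was paired by number. The calculations were run on simulated data with planted changes. The noise there was smaller than the spread between these libraries, so this checks the calculation and not how well it works on them. Alternatives covered the threshold, overlap, merging, annotation, seed length, scaling, sum or rank in place of the highest value, missing peaks, control-IP replicate 3 and each library left out. The members and lists were chosen with earlier results of these data known. The genes named are the 10 imprinted genes and, of each other list, the 5 with the highest mean −log10 p among those with a peak in all 5 libraries and up to 3 with the highest and 3 with the lowest mean ratio among those beyond every control-IP. A gene that this rule names is not reported here.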

Additional observations from a re-analysis of the deposited data

Results flagged for a closer look

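Control-IP replicate 3, which entered no comparison, had a peak over Rian with −log10 p of 46.4, above the highest of the other control-IPs over this gene, 45.4 in control-IP replicate 1. The peak was 15108 bp wide and covered 11439 exonic bases of Rian, so that it reached from within the gene to near its 3′ end. It was the only peak of this library over the 5 imprinted genes on chromosomes that its list reached (Meg3, Rian, Mirg, Dlk1 and Grb10). Its value cannot be set against those of narrow peaks.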

How the results depend on the processing

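The 10 genes had an exonic peak in 4 to 6 cases under every alternative run. At −log10 p over 50, intervals numbered 8 in place of 18 and those over 3′UTR sequence 4 in place of 10. With the same number of peaks in each library, added after seeing the data, they numbered 9 and 4, and the let-7 7-mer was in 1 interval. The let-7 6-mer was in 4 intervals (10.5% of all exonic intervals hold it), and without miR-222-IP replicate 2 the 7-mer was in 0, against 2 without each of the others. With control-IP replicate 3, 1 interval, joined by its wide peak over Rian, held the miR-222 7-mer. The median log2 ratio of the 3 genes was −0.57, and −0.052 without scaling. It was 0.13 over 6 genes when missing peaks were filled with 20, since Peg3, Rian and Grb10 then entered, and it ranged from −0.87 to −0.039 when a library was left out. The value of −0.039 is without control-IP replicate 4, where only experiment 1 was left and Rian entered. Genes above every control-IP numbered 1, but 0 when scaled to the sum of all peaks, 0 with no replicate block and 2 (Peg10 and Peg3) with that filling. Over all genes the share above ran from 1.97% when scaled to the sum of all peaks to 50.4% without miR-222-IP replicate 1. Genes below numbered 1, but 2 (H19 and Igf2) when scaled to the sum of all peaks and when a gene's peaks were summed, and 1 to 2 when a library was left out. For H19 the sum added 2 peaks in each control-IP and took 1 in each miR-222-IP. Igf2 was below every control-IP under all alternatives run, with log2 ratios from −1.65 to −0.48. The share of all genes below varied widely between these alternatives. It was 1.84% without scaling, 37.7% when scaled to the sum of all peaks and 49.6% without miR-222-IP replicate 1. In that last case a single miR-222-IP was set against a single control-IP, so the call there carries little weight. The ratio of Peg10 was −0.16 when scaled to the sum of all peaks and 0.15 to 0.87 under the others on a log2 scale. By percentile rank, the 3 genes had a median difference of −7.74 percentage points, beside 8.26 over all genes. No ratio of the 10 genes could be formed with control-IP replicate 3, whose list lacks the chromosomes of H19, Igf2 and Peg10. Without read numbers, −log10 p mixes depth with enrichment, and with 1 miR-222-IP in each experiment no difference could pass the test.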
